A study of Mus musculus with 16 samples.

Results

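The class IIa histone deacetylases and the MEF2 transcription factors were examined as 7 genes, *Hdac4*, *Hdac5*, *Hdac7*, *Hdac9*, *Mef2a*, *Mef2c* and *Mef2d*, named by symbol and matched to the 18424 genes of the expression table by Ensembl identifier. Each of the 7 was listed in every sample and passed the filter on low values. The tissue was the medial prefrontal cortex of 16 male C57BL/6N mice aged 120 days. They carried either the wild-type *Arid1b* gene (WT) or, in all cells, 1 copy with a protein-truncating mutation (HT), and their dams drank vehicle (Veh) or the serotonin reuptake inhibitor fluoxetine (Flx) while the pups were 3 to 21 days old. Vehicle was drinking water with 0.2% saccharin, which the dams of all 4 groups received, and fluoxetine was added to it at 0.1 mg/ml. Each of the 4 groups (WT-Veh and WT-Flx, HT-Veh and HT-Flx) held 4 mice, and each mouse was 1 sample. The pups took up the drug through the dam, and the litter of each mouse is not given in the sources used here, so p-values measure the spread between mice that may share a litter.

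MEF2 proteins are transcription factors that bind DNA through a MADS box and switch on genes in response to calcium entry in neurons, where they take part in differentiation and in the number and strength of synapses. Class IIa histone deacetylases have little catalytic activity of their own. They bind MEF2 and hold its targets down by bringing in HDAC3 with the NCoR corepressors, and when calcium-dependent kinases phosphorylate them they are bound by 14-3-3 proteins and leave the nucleus. The study examined *Hdac4* as a corepressor of *Mef2a*, whose targets at synapses include *Arc*. The transcript level measured here does not report phosphorylation or the position of a protein in the cell.

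The genes lie on 7 chromosomes (GENCODE, GRCm38): *Hdac4* (ENSMUSG00000026313) at chr1:91928779-92195699, *Hdac5* (ENSMUSG00000008855) at chr11:102194432-102230166, *Hdac7* (ENSMUSG00000022475) at chr15:97792664-97844502 and *Hdac9* (ENSMUSG00000004698) at chr12:34047580-34917095, all on the minus strand. *Mef2a* (ENSMUSG00000030557) is at chr7:67231163-67372858 on the minus strand, and *Mef2c* (ENSMUSG00000005583) at chr13:83504034-83667080 and *Mef2d* (ENSMUSG00000001419) at chr3:88142372-88172086 are on the plus strand. *Hdac7*, *Mef2a* and *Mef2d* overlap the opposite-strand genes *Slc48a1*, *Lysmd4* and *1700113A16Rik*, and the libraries were stranded. Strand does not separate genes that overlap on the same strand. These include *Gm47357* with *Hdac9* and *Gm44667* with *Mef2a*, both listed in the expression table, and *Mir8101* with *Hdac5*, which is not listed.

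The sequences show how alike the members are, which bears on how reads are shared out between them. Among the deacetylases, a stretch of 32 coding bases was identical in *Hdac4*, *Hdac5* and *Hdac9*. It is in capitals below, with the neighbouring bases in lower case (GENCODE transcripts, GRCm38, minus strand in each case). It lies at chr1:91982069-91982100, chr11:102202572-102202603 and chr12:34389279-34389310.
Hdac4: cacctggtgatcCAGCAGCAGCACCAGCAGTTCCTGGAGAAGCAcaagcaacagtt
Hdac5: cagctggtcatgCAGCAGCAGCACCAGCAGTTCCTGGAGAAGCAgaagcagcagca
Hdac9: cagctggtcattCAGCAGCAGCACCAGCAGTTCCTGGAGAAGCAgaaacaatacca
The longest stretch shared by *Hdac5* and *Hdac7* held 36 coding bases, at chr11:102200424-102200459 and chr15:97802707-97802742, both on the minus strand.
Hdac5: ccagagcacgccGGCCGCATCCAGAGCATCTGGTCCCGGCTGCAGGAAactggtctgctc
Hdac7: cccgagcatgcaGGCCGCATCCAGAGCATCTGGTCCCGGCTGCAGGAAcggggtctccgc
Between *Hdac4* and *Hdac7*, between *Hdac7* and *Hdac9*, between a deacetylase and a MEF2 gene, and between the MEF2 genes, no stretch of 31 bases was shared. The first 90 coding bases of the MEF2 genes, joined from 2 exons each, encode the start of the MADS box. Capitals mark the 63 positions at which all 3 genes have the same base.
Mef2a: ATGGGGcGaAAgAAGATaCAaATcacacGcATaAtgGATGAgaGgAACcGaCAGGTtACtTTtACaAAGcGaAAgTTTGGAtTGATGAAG
Mef2c: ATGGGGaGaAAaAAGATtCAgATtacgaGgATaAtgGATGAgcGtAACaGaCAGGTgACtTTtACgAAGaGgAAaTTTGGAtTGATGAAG
Mef2d: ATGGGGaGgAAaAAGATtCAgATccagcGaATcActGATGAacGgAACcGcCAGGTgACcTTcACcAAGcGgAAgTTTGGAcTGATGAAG
The longest run of identical bases was 8, and pairs of genes were alike at 74 (*Mef2a* and *Mef2c*), 71 (*Mef2c* and *Mef2d*) and 69 (*Mef2a* and *Mef2d*) of the 90 positions. Words of 31 bases were compared over all transcripts, each read in its own direction. The share of a member's words found in any other gene ran from 0% in *Mef2d* to 2.92% in *Mef2a*. Members shared at most 13 such words with the other members. Opposite strands were not compared, here or for the shared stretches.

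The promoters were searched for the MEF2 consensus, the A/T-rich element that MEF2 binds, on both strands of the 250 bases before each start site (RefSeq, GRCm38.p6). Of 13 member promoters, 1 held it, against 959 of 32851 promoters of all genes (2.92%). The match was in *Hdac5*, 20 to 11 bases before the start, and is in capitals in the stretch chr11:102230173-102230217, minus strand. A match is a run of letters and was not tested for binding.
Hdac5 promoter: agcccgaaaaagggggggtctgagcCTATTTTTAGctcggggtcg

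The tissue and genotype of the samples were checked first. Normalized totals were from 92.8% to 104% of their mean, and because the values are normalized estimates the sequencing depth is unknown. *Arid1b*, the mutated chromatin remodelling gene, averaged 2368 ± 432 normalized reads in WT-Veh and 1795 ± 160 in HT-Veh, and 2159 ± 233 in WT-Flx against 1636 ± 61.0 in HT-Flx (SD over 4 mice). The genotypes did not overlap under fluoxetine (exact permutation p = 0.0286, two-sided), and overlapped under vehicle (exact p = 0.0857), where WT-Veh replicate 1 was at 1787. The 5 glutamatergic cortical neuron markers had a mean log2 value of 12.7 to 13.4 in every mouse. A score of 7 olfactory bulb markers (mean log2(value + 1) of *Eomes*, *Cdhr1*, *Tbx21*, *Doc2g*, *Shisa3*, *Sp8* and *Th*) split the mice: 5 lay between 7.57 and 10.1 and the other 11 between 4.25 and 5.38. The 5 bulb-rich mice were replicates 1, 2 and 4 of WT-Flx, replicate 1 of WT-Veh and replicate 4 of HT-Veh, so WT-Flx held 3 of them and HT-Flx none. No gene of the 8 marker lists passed the adjusted threshold in a group comparison, and all 7 bulb markers were lower in HT-Flx than in WT-Flx at an unadjusted limma p under 0.05. Group differences of the members are therefore given also without these mice, singly or as a range, and in bulk tissue fewer cells of a type and less RNA per cell cannot be told apart.

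All 7 genes were expressed in the adult prefrontal cortex of every mouse. Levels of different genes were compared as normalized read counts per kilobase of exons. *Mef2c*, the MEF2 gene most associated with cortical excitatory neurons, was at 1306 ± 193 and *Mef2d* at 1266 ± 151 per kilobase (mean ± SD, n = 16), and their ranges over mice, 936 to 1577 and 898 to 1546, largely coincided. *Hdac5* followed at 492 ± 52.1 and *Mef2a* at 330 ± 34.8 per kilobase, with ranges that overlapped between 392 and 402. *Hdac7* was at 208 ± 22.8, *Hdac4* at 120 ± 23.5 and *Hdac9* at 90.01 ± 10.03 per kilobase. *Hdac7* lay below *Mef2a* in all mice, while the ranges of *Hdac7* and *Hdac4*, and of *Hdac4* and *Hdac9*, overlapped. With the longest transcript as the length, *Mef2a* (874 ± 92.3) came above *Hdac5* (799 ± 84.7) and the other places in the order held. *Mef2c* was then at 3269 (2344 to 3949 over mice) and *Mef2d* at 1403 (995 to 1713), which did not overlap, so the closeness of the pair rests on the exon length used.

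Variation between mice was largest for *Hdac4*. The coefficient of variation over the 16 mice was between 10.6% and 14.8% for 6 of the genes, and 19.6% for *Hdac4*, whose normalized read count ran from 1316 in WT-Veh replicate 1 to 2801 in HT-Flx replicate 2, a 2.13-fold range. For the other 6 the highest mouse was 1.40 to 1.72 times the lowest. *Hdac4*, *Mef2c* and *Mef2d* all had their lowest value in WT-Veh replicate 1, the mouse with the highest bulb score. *Hdac4*, *Mef2a* and *Mef2d* all had their highest value in HT-Flx replicate 2.

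**Figure D1:**
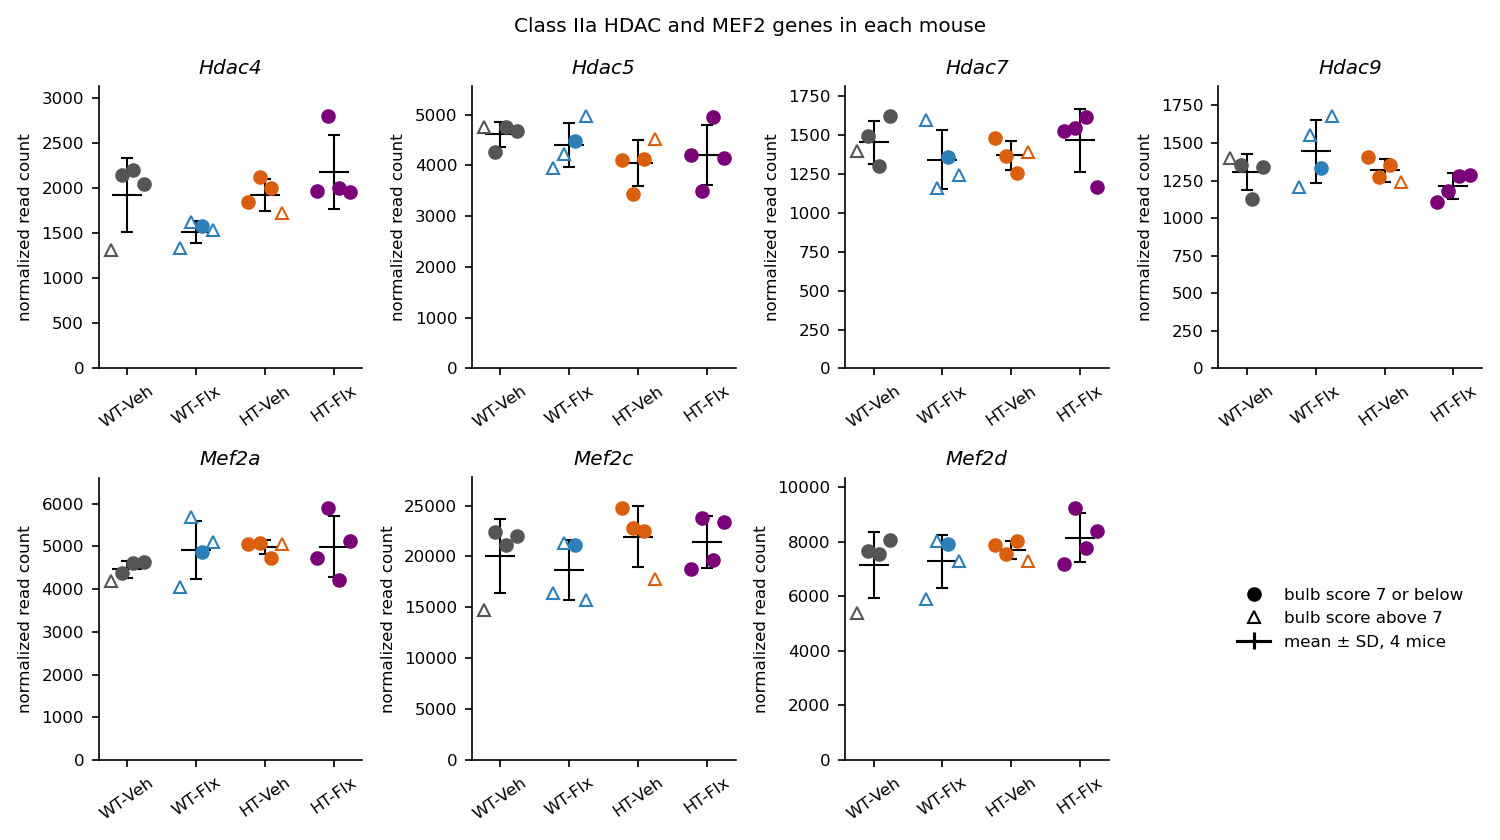
Normalized read count (y axis) of the 7 genes in each of 16 mice by group (x axis), with the mean and SD of 4 mice per group as a dash and bars; open triangles are the 5 mice with a bulb score above 7. For *Hdac4* the 4 HT-Flx mice, from 1955 to 2801, sit above the 4 WT-Flx mice, from 1343 to 1624.

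To examine whether the loss of 1 copy of *Arid1b* altered these genes without treatment, HT-Veh was compared with WT-Veh. No member passed the adjusted threshold of 0.05 in limma fitted across all genes, where 0.0178% of genes (3 of 16832) passed. At an unadjusted p under 0.05 there were 2 members, *Mef2a* and *Hdac5*, against 4.88% of all genes, and 5 members were higher and 2 lower in HT-Veh. The median log2 difference of the 7 was 0.024, beside 0.0062 over all genes tested.

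*Mef2a*, the MEF2 factor of the pathway the study examined, was at 4201, 4386, 4621 and 4638 in WT-Veh replicates 1 to 4. In HT-Veh it was at 5067, 5085, 4733 and 5063. Every HT-Veh mouse was above every WT-Veh mouse, with 4638 and 4733 as the nearest values. The log2 difference was 0.16 (SE 0.060, 95% CI 0.027 to 0.30; limma p = 0.0235, adjusted p = 0.922; exact permutation p = 0.0286, the smallest that 4 against 4 mice can give). Groups did not overlap for 3.84% of all genes in this comparison, and *Mef2a* was the only member among them. The difference was 0.16 with the bulb score as a covariate (adjusted p = 0.306) and 0.13 without the bulb-rich mice (adjusted p = 0.398).

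*Hdac5*, a deacetylase known to be exported from the nucleus by activity in neurons, was at 4767, 4255, 4762 and 4680 in WT-Veh. In HT-Veh it was at 4115, 3440, 4123 and 4513. Of the HT-Veh mice, 3 were below the lowest WT-Veh mouse and replicate 4 was within the WT-Veh range. The log2 difference of -0.19 (SE 0.087, 95% CI -0.39 to -0.0020) had a limma p of 0.0481 and an adjusted p of 0.922, and the exact permutation p was 0.0571. It was -0.23 without the bulb-rich mice (adjusted p = 0.305), and -0.12 without HT-Veh replicate 2, the lowest mouse for this gene.

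For *Hdac4* the vehicle groups had nearly the same mean, 1929 ± 414 in WT-Veh and 1928 ± 174 in HT-Veh (SD, n = 4 each). The log2 difference of 0.024 had a 95% CI from -0.32 to 0.37, and it was -0.15 without WT-Veh replicate 1 and -0.025 without HT-Veh replicate 2. Without the bulb-rich mice, the difference was -0.099 (adjusted p = 0.626). *Hdac7*, best known from blood vessels and thymocytes, differed by -0.082 (95% CI -0.27 to 0.11), and *Hdac9*, a deacetylase with a role in dendrite growth, by 0.018 (95% CI -0.17 to 0.21), and without the bulb-rich mice the values were -0.11 and 0.080. *Mef2c* differed by 0.14 (95% CI -0.19 to 0.47) and *Mef2d* by 0.12 (95% CI -0.14 to 0.38). In both, WT-Veh replicate 1 was the lowest of all mice, at 14712 for *Mef2c* and 5375 for *Mef2d*. Without the bulb-rich mice the difference was 0.096 for *Mef2c* (adjusted p = 0.526) and 0.013 for *Mef2d*, neither past the adjusted threshold.

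To examine whether early fluoxetine altered these genes in the heterozygotes, HT-Flx was compared with HT-Veh, which is also the group compared with WT-Veh above. Neither any member nor any gene (0%) passed the adjusted threshold, and no member had an unadjusted p under 0.05, against 3.07% of all genes. The differences ran from -0.12 for *Hdac9* to 0.17 for *Hdac4*, and the 95% CIs of the 7 genes lay within -0.29 and 0.42. In *Hdac4*, HT-Veh mice were at 1854, 2128, 2002 and 1728 and HT-Flx mice at 1975, 2801, 2004 and 1955. The groups overlapped, and replicate 2 of HT-Flx stood far above the others. Without that mouse the difference fell to 0.041 (adjusted p = 1.00). *Mef2a* differed by -0.0082 (95% CI -0.21 to 0.19), with group means of 4987 and 4994. Groups did not overlap for 1.99% of all genes in this comparison, and for none of the members. Without the bulb-rich mouse, HT-Veh replicate 4, the differences of the 7 lay between -0.15 and 0.12.

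In WT mice, fluoxetine gave no member past the adjusted threshold and no gene at all did (0%), with 4.2% of all genes and none of the members at an unadjusted p under 0.05. *Hdac4* had the largest difference of the 7. It was at 1316, 2151, 2204 and 2046 in WT-Veh and at 1343, 1624, 1577 and 1534 in WT-Flx. All WT-Flx mice were below 3 of the WT-Veh mice, and WT-Veh replicate 1 was the lowest of the 8. The log2 difference was -0.32 (SE 0.16, 95% CI -0.67 to 0.033; limma p = 0.0709, adjusted p = 1.00; exact permutation p = 0.143). Leaving out WT-Veh replicate 1 gave -0.49, and leaving out the bulb-rich mice, which left replicate 3 as the only WT-Flx mouse, gave -0.43 (adjusted p = 0.154), with that lone mouse assumed to vary like the WT-Veh mice. With WT-Flx replicate 2 kept and the other bulb-rich mice left out, it was -0.41 (adjusted p = 0.0591), and with the bulb score as a covariate it was -0.17 (adjusted p = 0.830). The other 6 members differed by -0.12 to 0.14, and by -0.11 to 0.097 without the bulb-rich mice. With WT-Flx replicate 2 kept, their range was wider, from -0.22 for *Hdac7* to 0.21 for *Mef2a*. WT-Flx and WT-Veh did not overlap for 2.89% of all genes and for none of the members.

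The genotypes were then compared under fluoxetine. Here 0.0417% of genes (7 of 16788) and none of the members passed the adjusted threshold, and 10.4% of genes and 1 member had an unadjusted p under 0.05. That member was *Hdac4*. The HT-Flx mice, from 1955 to 2801, did not overlap with the WT-Flx mice, from 1343 to 1624. The same held for 5.83% of all genes in this comparison and for no other member. *Hdac4* was higher in HT-Flx by 0.51 on the log2 scale (SE 0.13, 95% CI 0.24 to 0.78), or 43.7% in the means of 2184 ± 412 and 1520 ± 123. The limma p was 0.00156 (adjusted p = 0.289, rank 81 of 16788), and the exact permutation p was 0.0286. The value stayed between 0.38 and 0.56 with any 1 mouse left out, lowest without HT-Flx replicate 2. The bulb score differed along with it, at 7.75 ± 1.80 in WT-Flx and 4.79 ± 0.37 in HT-Flx, with summed marker values of 409 to 7775 and 226 to 354. With the bulb score as a covariate the difference was 0.54 (SE 0.22), and without the bulb-rich mice it was 0.45 (SE 0.20, adjusted p = 1.00), from 1 WT-Flx mouse assumed to vary like the others. That mouse, replicate 3 with a bulb score of 5.38, was at 1577 and below all HT-Flx mice.

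*Hdac9* differed in the other direction under fluoxetine, with WT-Flx mice at 1210, 1552, 1335 and 1678 and HT-Flx mice at 1104, 1178, 1283 and 1290. The log2 difference was -0.24 (95% CI -0.49 to 0.012; limma p = 0.0602, adjusted p = 0.490; exact permutation p = 0.114), and WT-Flx replicate 1 lay inside the HT-Flx range. The bulb score as a covariate brought it to -0.031, and leaving out the bulb-rich mice to -0.14. It was -0.25 with WT-Flx replicate 2 kept and the other bulb-rich mice left out. *Hdac5* was at -0.074 (95% CI -0.32 to 0.17) and *Hdac7* at 0.13 (95% CI -0.16 to 0.41). With the covariate *Hdac5* was at -0.058 and *Hdac7* at -0.022. Without the bulb-rich mice *Hdac5* was at -0.10 and *Hdac7* at 0.095, or -0.061 and 0.21 with WT-Flx replicate 2 kept. *Mef2c* differed by 0.20 (95% CI -0.072 to 0.48) and *Mef2d* by 0.17 (95% CI -0.085 to 0.42), while *Mef2a*, higher in HT mice under vehicle, was at 0.020 (95% CI -0.25 to 0.29). *Mef2c* fell to 0.010 with the covariate and 0.0096 without the bulb-rich mice, or 0.0030 with WT-Flx replicate 2 kept. *Mef2d* was at 0.14 with the covariate, 0.038 without these mice and 0.028 with WT-Flx replicate 2 kept. In the same settings *Mef2a* was at 0.17, 0.027 and -0.085. The median of the 7 was 0.13, beside 0.0081 over all genes tested.

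Whether fluoxetine acted differently in the 2 genotypes was tested as the interaction, the fluoxetine difference in HT minus that in WT, over all 16 mice. No member and no gene (0%) passed the adjusted threshold, with 4.29% of genes at an unadjusted p under 0.05. *Hdac4* had an interaction of 0.48 (SE 0.21, 95% CI 0.044 to 0.93), made up of -0.32 in WT and 0.17 in HT. Its p in the limma fit across all genes was 0.0331 and its adjusted p 0.998. It was 0.66 without WT-Veh replicate 1, 0.29 with the bulb score as a covariate and 0.55 without the bulb-rich mice, where the lone WT-Flx mouse is again assumed to vary like the other groups. *Hdac9* had the lowest value, -0.26 (95% CI -0.56 to 0.045), and the other 5 were between -0.14 and 0.21. Without the bulb-rich mice, the 6 members other than *Hdac4* lay between -0.22 and 0.20. With WT-Flx replicate 2 kept, these 6 ran from -0.33 for *Hdac9* to 0.32 for *Hdac7*. For *Mef2a* the interaction of -0.14 had a 95% CI from -0.45 to 0.17, so a genotype difference under vehicle only was not shown. The 4 comparisons of 2 groups share their groups with each other and are not independent.

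Over both treatments, HT and WT mice differed in 0.0569% of genes (10 of 17567) and in no member at the adjusted threshold, and in 11.7% of genes and 1 member at an unadjusted p under 0.05. *Hdac4* was the member, at 0.27 (SE 0.10, adjusted p = 0.389), and fell to 0.13 with the bulb score as a covariate. *Hdac5* was lower by a log2 value of -0.13 (95% CI -0.29 to 0.021), *Mef2c* higher by 0.17, *Mef2d* by 0.14 and *Mef2a* by 0.091, each with a 95% CI that held 0. With the covariate *Mef2c* fell to 0.0053 and *Mef2d* to 0.041, and with the bulb-rich mice other than WT-Flx replicate 2 left out *Mef2a* and *Mef2d* were both at 0.020. Without all 5 bulb-rich mice the members lay between -0.17 and 0.18. Fluoxetine over both genotypes gave member differences of -0.076 to 0.062. No gene passed the adjusted threshold there (0%), and 3.23% of genes, none a member, had an unadjusted p under 0.05. The member range was -0.16 to 0.048 without the bulb-rich mice, and -0.15 to 0.10 with WT-Flx replicate 2 kept. Of the 28 exact permutation tests, 7 members in 4 comparisons of 2 groups, 2 reached the smallest possible p of 0.0286, namely *Mef2a* in the vehicle groups and *Hdac4* under fluoxetine.

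**Figure D2:**
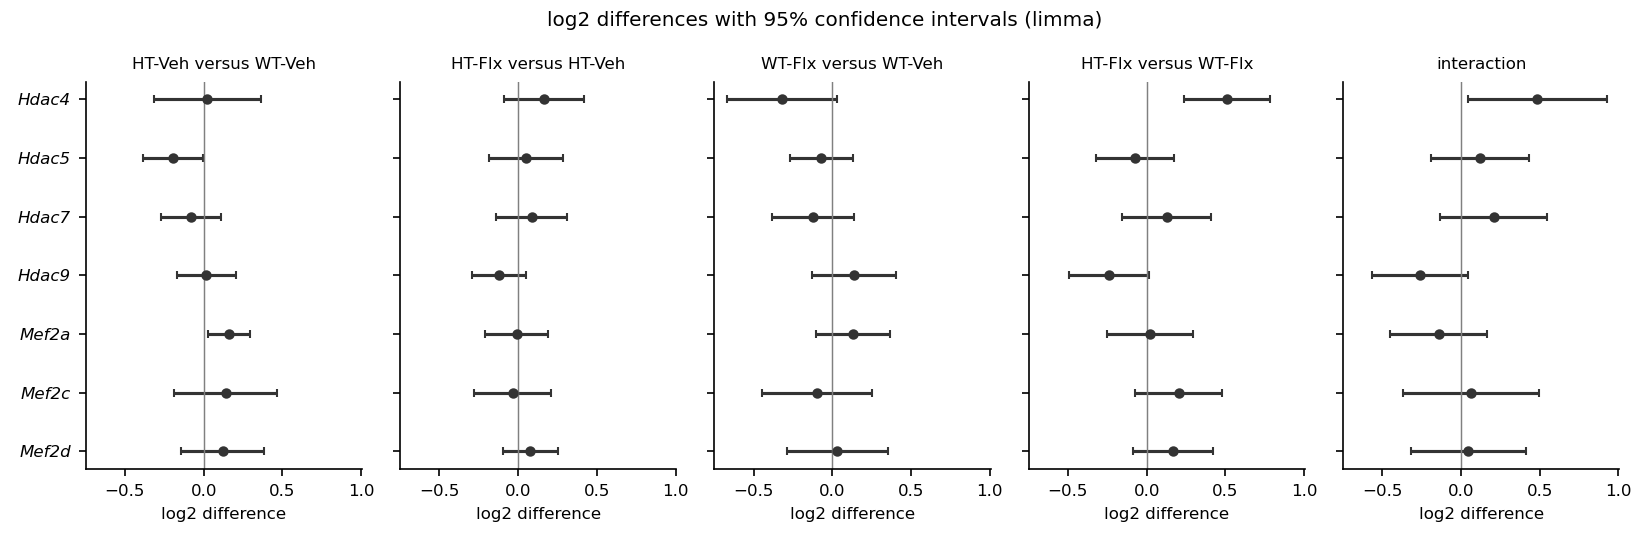
Differences on the log2(normalized read count + 1) scale (x axis) for the 7 genes (y axis) in the 4 comparisons of 2 groups (8 mice each) and in the interaction (16 mice), with 95% confidence intervals from limma as bars; the vertical line is at 0. Intervals exclude 0 for *Mef2a* and *Hdac5* in HT-Veh versus WT-Veh and for *Hdac4* in HT-Flx versus WT-Flx and in the interaction, none past the adjusted threshold.

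The members were also set against the makeup of the sample, first by the bulb score. Within groups, *Mef2c* fell with the bulb score by 0.097 on the log2 scale per unit of score (SE 0.022, limma adjusted p = 0.00803, 16 mice). In this fit 11.8% of all genes passed the adjusted threshold, 7.03% lower with the score as *Mef2c* and 4.8% higher, and 3 members and 27.3% of all genes had an unadjusted p under 0.05. *Mef2c* was at 14712, 16428, 21337, 15758 and 17774 in the 5 bulb-rich mice, with a median of 16428, and in the other 11 mice between 18769 and 24785, with a median of 22435. WT-Flx replicate 2, at 21337, was the bulb-rich mouse within the range of the others. Without WT-Veh replicate 1 the slope was -0.086 with an adjusted p of 0.293. The 11 other mice span too little of the score for a slope, and in them it was 0.14 with an adjusted p of 0.886.

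*Hdac4* and *Mef2d* had slopes of the same sign that did not pass, -0.079 (SE 0.027, adjusted p = 0.0617) and -0.060 (SE 0.023, adjusted p = 0.0907). *Hdac4* lay between 1316 and 1728 in the bulb-rich mice and between 1577 and 2801 in the others. Its slope passed when WT-Flx replicate 1, 2 or 4 or HT-Flx replicate 2 was left out (adjusted p from 0.0159 to 0.0480), and was -0.023 without WT-Veh replicate 1 (adjusted p = 0.878). *Mef2d* passed without WT-Flx replicate 1 (adjusted p = 0.0229), and was at -0.017 without WT-Veh replicate 1 (adjusted p = 0.903). *Mef2a*, *Hdac5*, *Hdac7* and *Hdac9* had slopes between -0.018 and 0.024, each with a 95% CI that held 0. Markers of cortical glutamatergic neurons had slopes between -0.15 and -0.052, and 3 of 5 passed, all lower with the score. Of the other marker lists, 3 of 6 GABAergic neuron markers passed as higher and 1 as lower, 2 of 5 microglia markers and 1 of 5 astrocyte markers as lower, and 1 endothelial and mural marker of 5 in each direction. None of the oligodendrocyte or striatal neuron markers passed. The part of the bulb score in the group differences of *Hdac4*, *Mef2c* and *Mef2d* was not tested beyond the values with the covariate and without these mice.

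**Figure D3:**
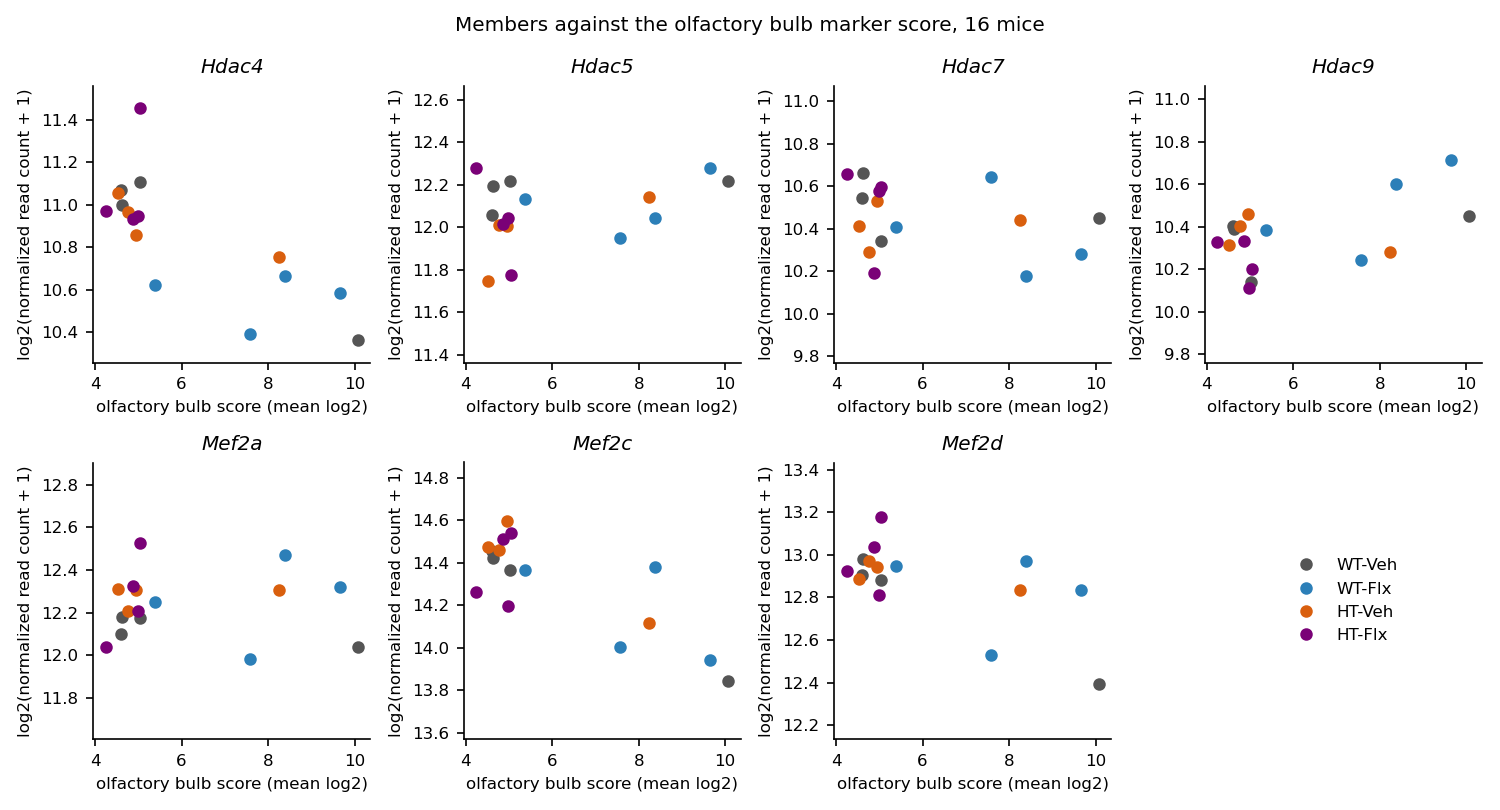
Members' log2(normalized read count + 1) (y axis, 1.3 units in each panel) against the olfactory bulb score (x axis, mean log2(value + 1) of 7 markers) in 16 mice coloured by group. Mice with a score above 7 lie low for *Hdac4* and, except 1 WT-Flx mouse, for *Mef2c*, and overlap widely with the other mice for *Mef2a* and *Hdac7*.

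The genes also varied together from mouse to mouse. Correlations were taken over the deviations of the 16 mice from their group means, and again over 10 mice, without the bulb-rich mice and without the WT-Flx mouse left alone in its group. The mice share their dissection and normalization, so these values are a description. *Hdac4*, *Mef2a*, *Mef2c* and *Mef2d* were positively correlated in all 6 pairs, with Pearson r from 0.49 to 0.85 over 16 mice and from 0.41 to 0.84 over 10. The closest pairs over 16 mice were *Hdac4* with *Mef2d* and *Mef2c* with *Mef2d*, both at 0.85, and over 10 mice they were at 0.61 and 0.84. *Hdac4* with *Mef2a*, the pair of the study's pathway, was at 0.58 and 0.70. *Hdac5* went the other way from these 4 genes, with r from -0.44 to -0.15 over 16 mice and from -0.79 to -0.42 over 10. Pairs with *Hdac7* or *Hdac9* lay between -0.46 and 0.33 over 16 mice. Scores of other marker lists were set against the members in the same way. *Hdac9* was at -0.64 over 16 mice and -0.81 over 10 with oligodendrocyte markers, and at -0.56 and -0.72 with striatal markers. *Mef2c* was at -0.90 and -0.55 with GABAergic markers, and at 0.85 and 0.53 with glutamatergic markers. With microglia markers *Mef2c* was at 0.21 and -0.82, *Mef2a* at -0.30 and -0.72, and *Mef2d* at 0.23 and -0.70. These pairs are examples, and no percentile over all genes was taken for the marker scores. With the bulb score *Mef2c* was at -0.78 and 0.33. The striatal score ran from 8.34 to 10.8 over mice, and only the bulb score was used as a covariate.

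The values between members have to be read against a table in which many genes move together. The 95th percentile of r over 12536 genes was 0.75 for *Hdac4*, 0.81 for *Mef2c* and 0.84 for *Mef2d*. It was 0.66 for *Mef2a*, 0.51 for *Hdac5* and 0.45 for both *Hdac7* and *Hdac9*. No lower percentile was taken, and none over 10 mice. The negative values of *Hdac5* and all values over 10 mice therefore have no such reference. The r of *Hdac4* with *Mef2a*, 0.58, lay below the percentile of either gene. So did those of *Mef2a* with *Mef2c*, 0.49, and of *Hdac4* with *Mef2c*, 0.74. That of *Mef2a* with *Mef2d*, 0.67, lay above the percentile of *Mef2a* but below that of *Mef2d*. *Hdac4* with *Mef2d* and *Mef2c* with *Mef2d*, both at 0.85, lay above the percentile of either gene. The genes with the most similar pattern to *Hdac4* were *Zfp532* (r = 0.96 over 16 mice, 0.96 over 10) and *Golga4* (0.95, 0.90). *Mef2c* was nearest to *Frrs1l* (0.98, 0.96) and *Syt1* (0.97, 0.94), and *Mef2d* to *Prickle2* (0.98, 0.96) and *Smcr8* (0.97, 0.90). *Mef2a* was nearest to *Esrrg* (0.92, 0.88) and *Slc38a1* (0.91, 0.89), and *Hdac5* to *Ptpn9* (0.88, 0.86) and *Ccni* (0.86, 0.88). The nearest genes were *Lrrfip1* (0.82, 0.75) and *Bin3* (0.78, 0.72) for *Hdac7*, and *Peli1* (0.84, 0.92) and *Ska2* (0.82, 0.66) for *Hdac9*.

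**Figure D4:**
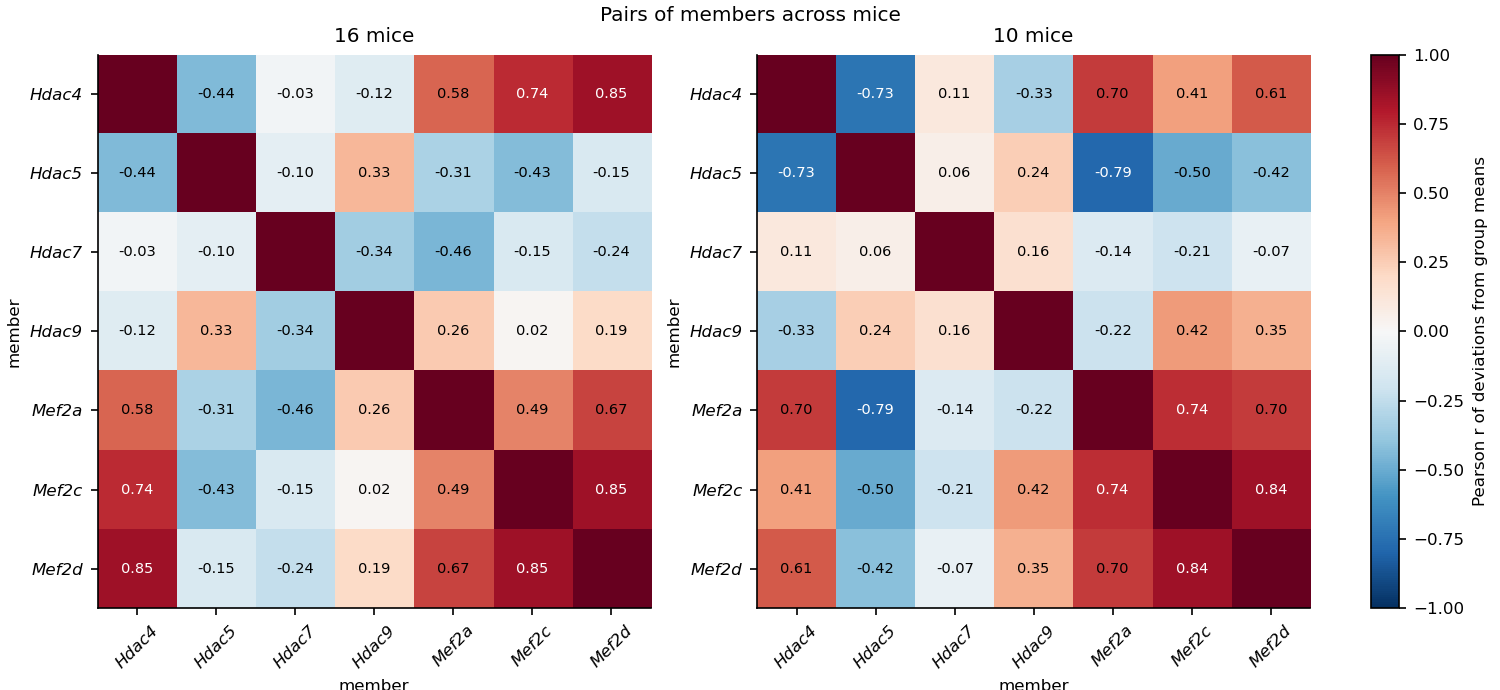
Pearson r between members (both axes) of deviations from group means, over 16 mice (left) and over 10 mice without the bulb-rich mice and WT-Flx replicate 3 (right), as colour and number. *Hdac4* and the MEF2 genes form a positive block in both panels and *Hdac5* is negative against them. Pairs with *Hdac7* or *Hdac9* run from -0.46 to 0.33 on the left and from -0.33 to 0.42 on the right.

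The rest of the pathway was read from 4 lists of 49 measured genes. They held the other deacetylases (7), corepressors and 14-3-3 proteins that bind class IIa deacetylases with the exporter *Xpo1* (12), the kinases and phosphatases upstream (23), and MEF2 targets in neurons (7). None of the 49 passed the adjusted threshold in any group comparison or in the interaction. In HT-Veh versus WT-Veh 4 had an unadjusted p under 0.05 (8.16%, against 4.88% of all genes): *Prkd3*, *Mark2* and *Cdk5* among the kinases, at 0.27, 0.17 and -0.17, and the target *Pcdh10*, a protocadherin, at 0.35 (adjusted p = 0.550). In HT-Flx versus WT-Flx there were 7 (14.3%, against 10.4%), with *Sik2*, a kinase of class IIa deacetylases, at 0.72 and *Gps2*, a subunit of the NCoR complex, at -0.39 as the ends of the range. None of the 49 had such a p in either fluoxetine comparison. The group differences of these genes were not taken with the bulb score as a covariate or without the bulb-rich mice. WT-Flx held most of those mice and HT-Flx none.

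*Arc*, a synaptic target of MEF2 induced by neuronal activity, was at 2939, 5144, 3684 and 5225 in WT-Veh and at 1974, 5579, 6079 and 3287 in WT-Flx. It was at 1373, 3613, 5575 and 6474 in HT-Veh and at 2322, 3209, 10418 and 5266 in HT-Flx. The groups overlapped widely, and the exact permutation p was 0.743 or more in the 4 comparisons of 2 groups. Its 95% CI in HT-Veh versus WT-Veh, -1.11 to 0.76 on the log2 scale, was wider than that of any member. With the bulb score, 8 of the 49 genes passed (16.3%, against 11.8% of all genes), 7 lower and 1 higher. Those lower with the score included the corepressors *Ncor1* (-0.078 per unit) and *Tbl1xr1* (-0.10) and the calcium-dependent kinases *Camk1d* (-0.13), *Camk2a* (-0.12), *Camk2g* (-0.083) and *Camk4* (-0.21), and the one higher was *Jun* (0.14).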

How the data were processed

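RNA sequencing measured the medial prefrontal cortex of 16 mice in 4 groups of 4, taken from the sample titles. The authors sequenced stranded, poly-A selected libraries from both ends, quantified the reads with Salmon 1.1.0 on the GRCm38 transcriptome, summarised them to genes and normalized them with DESeq2 1.30.1. The deposited signal is the resulting normalized read count, an estimate that is not whole: 10.3% to 39.4% of low values were within 0.05 of a multiple of the commonest step, so depth is unknown and no count model was used. Of 18424 genes, 18411 were matched to a symbol.

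Each comparison was tested with limma 3.58.1 (R 4.3.3, with trend) on log2(value + 1). Genes had to reach 10 in 4 or more samples of the fit. P-values were two-sided, adjusted by Benjamini and Hochberg's method over all genes, with a threshold of 0.05. Changes on this scale understate those of low genes. Comparisons of 2 groups used those 8 mice only. The interaction, the genotype and fluoxetine means and the bulb slope used all 16. Exact permutation tests, two-sided, took the difference of mean log2 values over 70 arrangements. The scripts were tested on simulated data. The members, the pathway and marker lists, the tests and the alternatives were chosen with earlier results of these data known. All 7 members are named, the pathway lists by counts with *Arc* and examples, and the 2 genes nearest to each member in r. One pathway gene is not reported here. Leaving out the 5 bulb-rich mice was added after seeing the data, since the alternative set at the outset left out 4 of them (not WT-Flx replicate 2). Member protein sequences were not used here.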

Additional observations from a re-analysis of the deposited data

Results flagged for a closer look

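The highest or lowest mouse of a group stood apart from the other 3, by a gap relative to the group's range above Dixon's 95% critical value, in 4 of 28 groups of member values. Chance alone flags about 1 in 20 groups. *Hdac4* in HT-Flx replicate 2 was at 2801, with the other HT-Flx mice at 1955 to 2004. *Mef2a* in HT-Veh replicate 3 was at 4733, below 5063 to 5085 in the others. *Hdac5* in WT-Veh replicate 2 was at 4255, below 4680 to 4767. *Mef2c* in WT-Veh replicate 1 was at 14712, below 21123 to 22435, and this mouse had the highest bulb score. Their part in the group differences can be read from the values without each mouse.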

How the results depend on the processing

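No member passed the adjusted threshold outside the bulb slope in any of 1176 values, the 7 group contrasts under every setting included; the smallest adjusted p was 0.0591. Of 56 member results 31 kept their sign in all settings, and 79 of 1309 alternative values had the other sign. The count of exact permutation tests at the smallest p was 2 under the other scalings and pseudocounts too. The *Hdac4* difference between HT-Flx and WT-Flx was positive in every setting. Depth is unknown, and 4 mice per group limit what could be seen. The cause of the changes below was not tested.

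HT-Veh versus WT-Veh had 3 calls over all genes, and 0 with all 4 groups in the fit, 18 with sample quality weights, 21 with the bulb score as a covariate and 11 without the 4 or the 5 bulb-rich mice. *Hdac4* there went to -0.094 with quality weights, -0.027 with the covariate and -0.099 without the 4 or 5 mice. HT-Flx versus HT-Veh had no call in any setting, and *Mef2a* went to 0.014 with the covariate. WT-Flx versus WT-Veh went from 0 calls to 12 with quality weights, 1 with the covariate, 25 without the 4 mice and 9 without the 5, and *Mef2c* to 0.065 with the covariate. HT-Flx versus WT-Flx went from 7 calls to 4 with a pseudocount of 0.1, with quantile normalization and with all 4 groups, to 14 with quality weights, to 2 without the 5 mice, and to 0 with a mean value of at least 100, with the covariate and without the 4 mice. *Mef2a* there went to -0.0026 with upper quartile scaling, -0.042 with quantile normalization, -0.091 with quality weights and -0.085 without the 4 mice, and *Hdac7* to -0.022 with the covariate.

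The interaction went from 0 calls to 2 without the 5 mice. *Mef2c* there went to -0.18 with the covariate, -0.093 without the 4 mice and -0.086 without the 5, and *Mef2d* to -0.029 with quantile normalization and -0.10 with the covariate. Genotype over both treatments went from 10 calls to 31 with quality weights and 3 with the covariate, and *Hdac7* to -0.0086 with the covariate and -0.0055 without the 5 mice. Fluoxetine over both genotypes went from 0 calls to 2 without the 5 mice. *Hdac9* there went to -0.00063 with upper quartile scaling, -0.0011 with quantile normalization, -0.00049 with the covariate and -0.038 without the 5 mice, and *Hdac5* to 0.057 with quality weights, 0.019 without the 4 mice and 0.041 without the 5. The slope on the bulb score went from 2078 calls to 11 without the 4 mice and 0 without the 5, which leaves little range of score. Without the 4 and without the 5 mice it was 0.030 and 0.15 for *Hdac4*, -0.048 and -0.19 for *Hdac5*, 0.020 and 0.14 for *Mef2c*, and 0.016 and 0.079 for *Mef2d*. For *Hdac9* it was -0.19 without the 5.

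The replicate numbers come from the titles, and nothing says that they pair mice. Correlations of same-numbered mice's deviations were from -0.225 to 0.310, with 6 of 16 above 0.1, so the numbers were not taken as pairs. With the replicate block, HT-Veh versus WT-Veh had 0 calls, HT-Flx versus WT-Flx 5, genotype over both treatments 17 and the slope 853, and no member passed in a group contrast.

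Leaving out 1 mouse at a time gave 0 to 2 calls between the vehicle groups, 0 between the HT groups, 0 to 4 in WT-Flx versus WT-Veh, 0 to 23 in HT-Flx versus WT-Flx (23 without WT-Flx replicate 3, 0 without WT-Flx replicate 1, 2 or 4), 0 for the interaction and for fluoxetine, 1 to 16 for genotype (1 without WT-Flx replicate 2 or 3) and 149 to 3463 for the slope (149 without WT-Veh replicate 1, 3463 without WT-Flx replicate 1). Signs turned in some of these fits for *Hdac4* (-0.15 to 0.098), *Hdac9* (-0.051 to 0.052), *Mef2c* (-0.0023 to 0.24) and *Mef2d* (-0.012 to 0.18) between the vehicle groups, for *Hdac5* (-0.033 to 0.14), *Mef2a* (-0.092 to 0.070) and *Mef2c* (-0.13 to 0.027) between the HT groups, for *Mef2d* (-0.099 to 0.13) in WT-Flx versus WT-Veh, and for *Hdac5* (-0.16 to 0.010) and *Mef2a* (-0.071 to 0.099) in HT-Flx versus WT-Flx. They also turned for *Mef2c* (-0.035 to 0.21) and *Mef2d* (-0.051 to 0.18) in the interaction, for *Hdac7* (-0.011 to 0.075) over genotype, for *Hdac5* (-0.051 to 0.033), *Hdac7* (-0.062 to 0.034), *Hdac9* (-0.029 to 0.050) and *Mef2d* (-0.010 to 0.10) over fluoxetine, and for *Mef2a* (-0.0013 to 0.030) in the slope.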
